A study of Homo sapiens with 2 samples.

Results

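The genes described here mark epithelial or mesenchymal identity: 5 epithelial genes (CDH1, EPCAM, KRT8, KRT18 and KRT19) and 5 mesenchymal genes (CDH2, VIM, ZEB1, SNAI2 and TWIST1). They were taken by name, with every probe set to which the platform annotation gives exactly 1 gene symbol that is one of the 10. This gave 17 of the 41097 single-gene probe sets, and 10 of the 19775 genes so named. No probe set with several symbols carried a member's name. Total RNA came from CL1-5, a highly invasive cell line derived from a human lung adenocarcinoma, and was labelled with biotin for Affymetrix U133 Plus 2.0 arrays. One culture had received 0.11 µM analogue 3, a synthetic analogue of the natural product desmosdumotin C with iodo, propyl and methoxy groups, for 24 h, and the control had received the solvent DMSO for 24 h. The dose is the ED50 that the submitters state for this compound in CL1-5. Each group was 1 array, so the differences below have no replicates behind them and carry no p-value.

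Epithelial cells are held together by E-cadherin and other junction proteins and are filled with keratin filaments. In the epithelial-mesenchymal transition, which carcinoma cells can pass through wholly or in part, E-cadherin is lost, N-cadherin and vimentin filaments appear, and the cells become motile. The repressors ZEB1, SNAI2 and TWIST1 drive this change, and ZEB1 and SNAI2 bind E-box sequences in the promoters of epithelial genes, CDH1 among them.

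Promoter sequence was shown for the members whose RefSeq window (GRCh38.p14) ends where the annotated gene begins, to let the E-box content be read directly. These were CDH2, VIM and ZEB1, all mesenchymal genes. The RefSeq promoter table held 11 windows for 4 members: 1 for VIM, 1 for KRT8, 2 for CDH2 and 7 for ZEB1, which has several annotated starts. The 250 bases upstream of the start follow, 5′ to 3′ on the gene's strand. Capitals mark the E-box CAGGTG, which was searched on both strands (CACCTG on the other).
CDH2 (chr18:28177131-28177380, minus strand): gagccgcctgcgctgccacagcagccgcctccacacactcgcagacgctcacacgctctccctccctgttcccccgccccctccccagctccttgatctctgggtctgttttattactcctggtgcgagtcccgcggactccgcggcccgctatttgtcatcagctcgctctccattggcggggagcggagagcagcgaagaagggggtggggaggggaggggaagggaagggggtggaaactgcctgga
VIM (chr10:17227991-17228240, plus strand): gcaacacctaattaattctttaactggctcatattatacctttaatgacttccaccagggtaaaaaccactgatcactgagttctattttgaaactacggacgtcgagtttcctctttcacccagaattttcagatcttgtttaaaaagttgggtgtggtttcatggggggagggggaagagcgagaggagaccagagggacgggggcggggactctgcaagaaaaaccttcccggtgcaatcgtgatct
ZEB1 (chr10:31318167-31318416, plus strand): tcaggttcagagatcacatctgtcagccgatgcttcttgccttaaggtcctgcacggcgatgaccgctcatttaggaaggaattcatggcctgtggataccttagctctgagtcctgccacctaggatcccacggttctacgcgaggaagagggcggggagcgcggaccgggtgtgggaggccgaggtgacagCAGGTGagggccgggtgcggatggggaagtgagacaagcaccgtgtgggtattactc

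The ZEB1 window held 1 match, on the gene's own strand, which begins 57 bases before the start. The CDH2 and VIM windows held none. Of all 35116 RefSeq windows of this length, 17.5% held at least 1 match. A second ZEB1 window, at another annotated start, held 2 matches, and 2.53% of all windows held at least 2. The other 5 ZEB1 windows, the second CDH2 window and the KRT8 window held no match. A match is a description of letters and does not show that a factor binds there.

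The pattern of the 10 genes on the DMSO array was mixed, with KRT8, KRT18 and 3 mesenchymal genes above the intensity floor and the epithelial surface genes under the array median. Intensities are on a linear scale as multiples of the array median, so 1 is the median probe set. A gene counted as measured when its brightest probe set reached a floor of 32 (log2 5) on at least 1 array. By that rule 5 members were measured, all on both arrays: KRT8, KRT18, VIM, ZEB1 and SNAI2. Of the 17 member probe sets, 12 were under the floor in both conditions, and 5 of these were under the array median too. TWIST1 lay just under the floor, at 30.7 with analogue 3. Levels of different probe sets are not compared with one another, because probes differ in how strongly they hybridise.

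**Figure D1:**
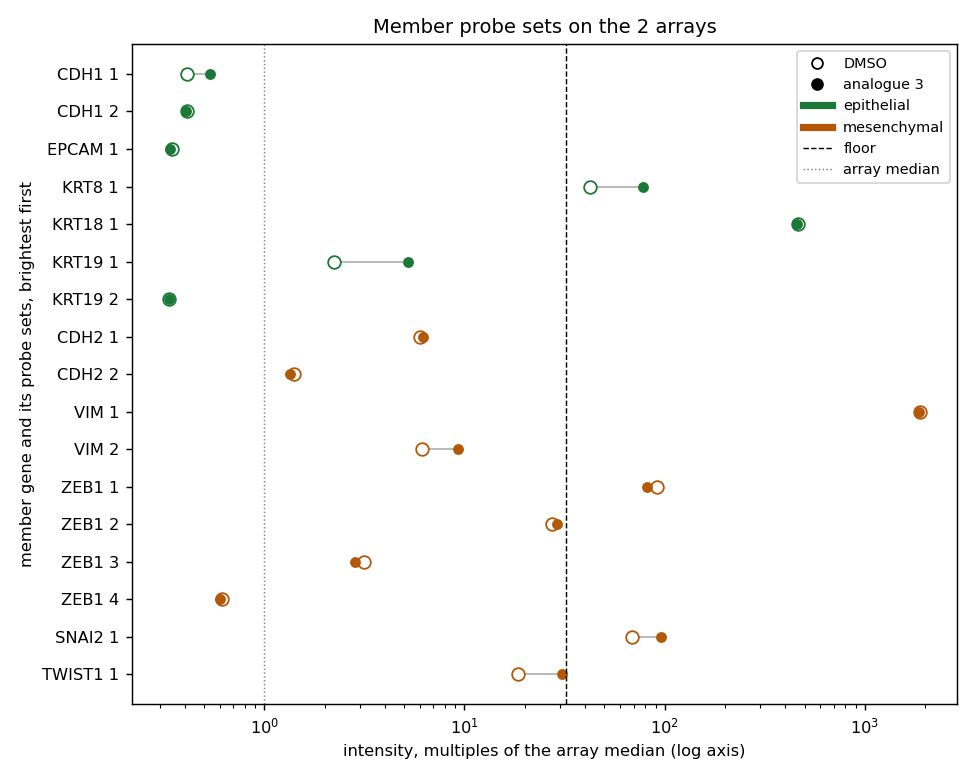
Intensity of each of the 17 member probe sets (rows, numbered within a gene from the brightest) as multiples of the array median on a log axis, with DMSO as open and analogue 3 as filled circles, epithelial genes in green and mesenchymal genes in brown. CDH1 and EPCAM lie left of the dotted line at the array median on both arrays, while KRT8, KRT18, VIM, ZEB1 and SNAI2 each have a probe set right of the dashed floor at 32.

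Analogue 3 and DMSO gave values within 1.5-fold of each other for 4 of the 5 measured members. In bulk RNA a change in transcript per cell and a change in the mix of cells cannot be told apart. None of the 5 measured members was at least 2-fold higher or lower with analogue 3. The shares over all 5050 measured genes were 3.47% for a 2-fold or larger difference upward and 2.67% for one downward. At 1.5-fold, 1 member (KRT8) was higher and none was lower, where 9.45% of all measured genes were higher and 9.13% were lower. The median log2 difference (analogue 3 minus DMSO, values under the floor raised to it) was 0.43 for the 2 measured epithelial members and -0.01 for the 3 measured mesenchymal members. It was -0.01 for all measured genes, with quartiles of -0.28 and 0.26. The epithelial median is the midpoint of 2 genes that differed from each other, so it describes neither.

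The 2 epithelial surface genes lay under the array median on both arrays. CDH1 encodes E-cadherin, the calcium-dependent adhesion molecule of adherens junctions. Its brighter probe set was 0.536 with analogue 3 and 0.409 with DMSO, and its other probe set was 0.406 and 0.410. The difference in the brighter one (log2 0.39) was thus absent from the other (log2 -0.01), and both lie under the array median, where a fold has no clear meaning. EPCAM encodes the epithelial cell adhesion molecule, a surface glycoprotein used to identify carcinoma cells. It had 1 probe set, at 0.339 with analogue 3 and 0.347 with DMSO. Neither gene, both standard markers of an epithelial cell surface, gave a value above the array median under either condition.

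KRT8 and KRT18 were measured on both arrays, and KRT8 had the largest difference of the 5 measured members. They encode the type II and type I keratins that pair into the filaments of simple epithelia. KRT8 was 77.8 with analogue 3 and 42.3 with DMSO, which is a difference of 1.84-fold (log2 0.88). KRT18 was 457.9 with analogue 3 and 460.8 with DMSO, a log2 difference of -0.01. On these arrays the partner genes thus had unequal differences, with KRT8 higher with analogue 3 and KRT18 within 1.01-fold. Each is represented by 1 probe set of the x_at type, which can share sequence with other transcripts. Keratin 8 and 18 have many near-identical pseudogene copies, so both values are uncertain between copies.

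KRT19 encodes a small type I keratin of simple and ductal epithelia. Its brighter probe set was 5.23 with analogue 3 and 2.23 with DMSO, which is a difference of 2.34-fold (log2 1.23). This was the largest difference among the 17 member probe sets, and it lies wholly under the floor. Its other probe set was 0.335 on both arrays. Of the 2798 genes with a mean level between log2 1 and log2 3, where this KRT19 probe set falls, 11.6% differed by at least 2-fold in one direction or the other, and 3.07% were at least 2-fold higher with analogue 3.

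**Figure D2:**
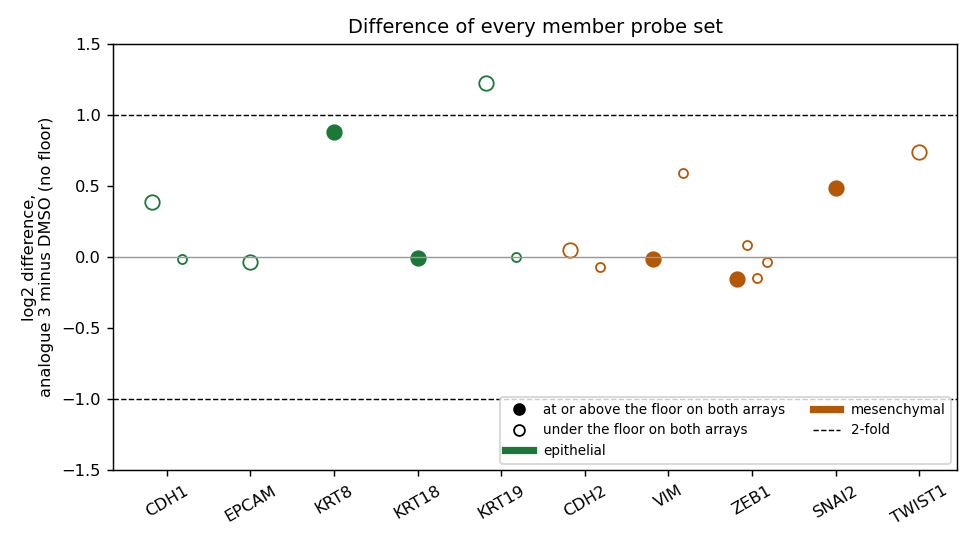
Log2 difference (analogue 3 minus DMSO, no floor applied) of every member probe set, grouped by gene, with the brightest probe set of a gene drawn larger and probe sets under the floor drawn as open circles. KRT8 at 0.88 is the highest filled point, KRT19 at 1.23 is the only point beyond the dashed 2-fold lines, and the lowest point is ZEB1 at -0.15.

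The structural mesenchymal genes differed little in their brightest probe sets. VIM encodes vimentin, the intermediate filament protein of mesenchymal cells. Its brightest probe set was 1868 with analogue 3 and 1883 with DMSO, a log2 difference of -0.01. A second, x_at probe set of VIM was 9.24 and 6.13 (log2 0.59), under the floor on both arrays, so the 2 probe sets of this gene disagreed. CDH2 encodes N-cadherin, which replaces E-cadherin in motile cells. It was 6.20 with analogue 3 and 5.98 with DMSO in its brighter probe set (log2 0.05), and 1.34 and 1.41 in the other (log2 -0.07). Both CDH2 probe sets lay under the floor, and both differed by less than 1.5-fold.

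The transcription factor genes lay on both sides of 0. ZEB1 encodes a zinc finger and homeodomain repressor and had 4 probe sets. The brightest was 81.9 with analogue 3 and 91.2 with DMSO (log2 -0.15), the next was 29.1 and 27.4 (log2 0.09), and the others were 2.84 and 3.15 (log2 -0.15), and 0.598 and 0.613 (log2 -0.04). These small differences lay on both sides of 0, and the only probe set above the floor was 1.11-fold lower with analogue 3. SNAI2 encodes the zinc finger repressor Slug. It had 1 probe set, at 95.8 with analogue 3 and 68.3 with DMSO, or 1.40-fold higher with analogue 3 (log2 0.49). TWIST1 encodes a basic helix-loop-helix factor. It was 30.7 with analogue 3 and 18.4 with DMSO, which is a difference of 1.67-fold (log2 0.74), with both values under the floor. SNAI2 and TWIST1 were thus both higher with analogue 3, and ZEB1 was 1.11-fold lower in its brightest probe set.

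The only error that these arrays can show is the disagreement between probe sets of a gene. In the 1127 genes for which 2 or more probe sets reached the floor with analogue 3 and with DMSO, the SD of the log2 difference of 1 probe set was 0.17. The differences of KRT8 (0.88) and SNAI2 (0.49) were larger than this SD, and those of KRT18, VIM and ZEB1 were smaller. Differences of that size were common: KRT8 and SNAI2 fall among the 4644 genes with a mean level of log2 5 or more. Of these genes, 21.2% differed by at least 1.5-fold, and the SD of the log2 difference across them was 0.55. Among genes with a mean level between log2 3 and log2 5, where TWIST1 falls, the SD of 1 probe set was 0.28, and 27.1% of 3488 genes differed by at least 1.5-fold. Between log2 1 and log2 3, the range of KRT19 and CDH2, it was 0.39. The spread between probe sets holds no error of culture, RNA extraction or hybridisation. KRT8, SNAI2 and TWIST1 have a single probe set each, so none of them has a second reading here.

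Lowering the floor brought more members into the comparison. With a floor of log2 1, 3 of 5 epithelial and 5 of 5 mesenchymal members were measured, and 1 (KRT19) was at least 2-fold higher while none was at least 2-fold lower. The shares over the 11158 genes measured at that floor were 3.76% upward and 5.25% downward. The epithelial median was then 0.88 and the mesenchymal median 0.05. With no floor, over all 5 genes of each group, they were 0.39 and 0.05. At a floor of log2 7 only KRT18 and VIM remained, both at -0.01.

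**Figure D3:**
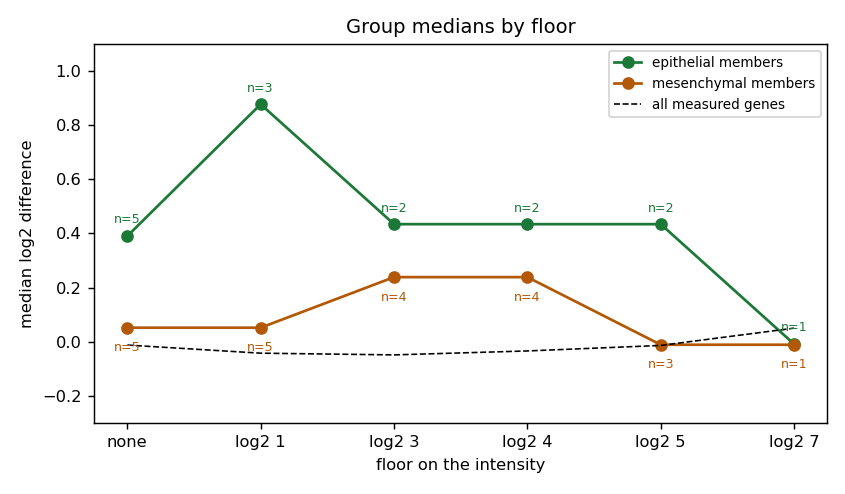
Median log2 difference (analogue 3 minus DMSO) of the measured epithelial (green) and mesenchymal (brown) members and of all measured genes (dashed) at 6 floors, with the number of members behind each point. The epithelial median runs from 0.88 at a floor of log2 1 to -0.01 at log2 7, where a single gene is left in each group, and the mesenchymal median from -0.01 to 0.24.

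Other genes of both programmes were examined through 7 lists. Of 128 distinct genes with a single-gene probe set, 43 were measured, of which 2 were at least 2-fold higher and 1 at least 2-fold lower. Over all measured genes the shares were 3.47% higher and 2.67% lower, so these counts are near the background and are not a result about the lists. They also hang on the floor. At a floor of log2 1, 81 genes of the lists were measured, with 7 higher and 1 lower. The shares over the 11158 genes measured at that floor were 3.76% upward and 5.25% downward.

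The junction list, 25 genes of adherens junctions, tight junctions and desmosomes, had 21 with a single-gene probe set and 6 measured. All 6 were lower with analogue 3, by less than 2-fold, with a median log2 difference of -0.38. Over all measured genes the median was -0.01, with quartiles of -0.28 and 0.26, so genes on either side of 0 are common. The 6 stayed below 0 under centring, loess removal and quantile normalization. These shifted the list's median only to between -0.37 and -0.44. So small a shift could hardly turn a sign and does not test the direction. When a gene was the median of its probe sets, only 2 of the 6 (CTNNA1 and DSP) were measured, both below 0. DSP, which encodes the desmosome-to-keratin linker desmoplakin, was 239.7 with analogue 3 and 409.9 with DMSO (log2 -0.77). OCLN, the tight junction gene of occludin, was 42.6 and 65.3 (log2 -0.62), and its scaffold partner TJP1 was 90.0 and 122.5 (log2 -0.45). CTNNA1, whose product links cadherin complexes to actin, was 457.7 and 568.7 (log2 -0.31, and -0.28 in its next probe set). CTNNB1, beta-catenin, differed by -0.03. Of the 2 measured epithelial keratin members, KRT8 thus differed in the opposite direction to these junction genes, while KRT18 was at log2 -0.01. CDH1, the core cadherin of adherens junctions, lay under the array median. With a floor of log2 1 the junction list had 11 genes below 0 and 5 above, with a median of -0.20 and none at least 2-fold lower. The 1 that was at least 2-fold higher was the tight junction gene CLDN4, at 13.1 with analogue 3 and 6.11 with DMSO. It was picked out with its values in view. Over all genes measured at that floor the share higher was 3.76%.

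Genes of the epithelial splicing, transcription and protease list, such as GRHL2, ESRP1 and PRSS8, gave low values. None of the 18 with a single-gene probe set reached the floor, and 13 were under the array median on both arrays, as CDH1 and EPCAM were. FOXA2, a forkhead factor of endoderm, came nearest to the floor, at 24.97 with analogue 3 and 29.5 with DMSO. Of 11 other keratins only KRT10 was measured, at 179.6 and 223.6 (log2 -0.32, and -0.27 in its next probe set). KRT10, a keratin of stratified epithelium, therefore lay on the other side of 0 from KRT8. With a floor of log2 1, KRT7 and KRT15 were also measured, both above 0, and the median of the 3 was 0.40. With no floor, 6 of the 11 lay above 0, 3 below and 2 at 0, with a median of 0.0032.

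Other transcription factors of the transition were mostly under the floor. The 4 measured of 15 were above 0, as SNAI2 was and ZEB1 was not, with a median of 0.26 and none past 2-fold. Over all measured genes the median was -0.01, so a value above 0 is common. The 4 stayed above 0 under centring, loess removal and quantile normalization. These shifted the list's median only to between 0.23 and 0.27, again too little to test the direction. When a gene was the median of its probe sets, only SOX9 and FOSL1 were measured, both above 0. TCF3, which encodes the E-box proteins E12 and E47, was 76.6 with analogue 3 and 55.3 with DMSO (log2 0.47, and 0.34 in its next probe set). SOX9 was 98.0 and 81.2 (log2 0.27, and 0.38 in its next probe set), and FOSL1, an AP-1 subunit, was 120.4 and 101.8 (log2 0.24). The 11 under the floor lay on both sides: with no floor, 10 of the 15 were above 0, 4 below and 1 at 0, with a median of 0.08. TCF12, an E-box partner of TCF3, was 29.1 and 29.9 (log2 -0.04), and ZEB2, the paralogue of ZEB1, was 0.598 and 0.837 (log2 -0.49), under the array median.

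Mesenchymal matrix, adhesion and contractile genes were divided. Of 30 genes, 13 were measured, 6 above and 7 below 0, with a median of -0.03. When a gene was the median of its probe sets, only TGFBI, CAV1 and S100A4 remained measured, all above 0, and the median was 0.95, so the list's median depends on how a gene is represented. TGFBI, a secreted matrix protein gene induced by TGF-beta, was 315.6 with analogue 3 and 115.5 with DMSO, 2.73-fold higher. CAV1, caveolin-1, was 64.6 and 30.5, at least 2.02-fold higher against the floor. NT5E, the ecto-nucleotidase CD73, was 116.9 and 203.8 (log2 -0.80). ITGB1, the beta-1 integrin, was 805.7 and 892.2 (log2 -0.15, and -0.35 in its next probe set). The differences of VIM and CDH2, the structural members, lay between these.

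Of 17 other intermediate filament and cytolinker genes, 6 were measured, with a median of 0.25 (-0.10 over 3 genes at a floor of log2 7). None was past 2-fold at this floor, which caps the 2 genes with only the treated array above it. The nuclear lamin gene LMNB2 was 51.4 with analogue 3 and 25.3 with DMSO, at least 1.61-fold higher against the floor, LMNB1 was 41.0 and 17.4, at least 1.28-fold higher, and both were past 2-fold without a floor (log2 1.02 and 1.23). LMNA was 285.5 and 230.0 (log2 0.31, and 0.35 in its next probe set). At a floor of log2 1, 3 of 12 measured genes of this list were at least 2-fold higher. The third was NES, nestin, at 9.50 and 3.40. Over all genes measured at that floor the share higher was 3.76%. MACF1, a linker of actin and microtubules, was 162.0 and 203.8 (log2 -0.33, and -0.23 in its next probe set). Corepressor and turnover genes of the repressor factors had a median of 0.05 over 13 measured of 16. AJUBA, a LIM-domain partner of Snail-family repressors, was 44.9 and 116.2, 2.59-fold lower. EZH2, the catalytic Polycomb subunit, was 43.6 and 17.8, at least 1.36-fold higher against the floor and past 2-fold without it (log2 1.29). AJUBA was thus the only one past 2-fold at the floor of log2 5. At a floor of log2 1 all 16 were measured, with 1 gene higher and 1 lower. The shares over all genes measured at that floor were 3.76% and 5.25%. EED, a Polycomb subunit, was 166.7 and 93.8 (log2 0.83). GSK3B, a kinase that marks Snail for degradation, was 30.5 and 54.8, at least 1.71-fold lower against the floor, and HDAC1 was 427.3 and 387.4 (log2 0.14).

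**Figure D4:**
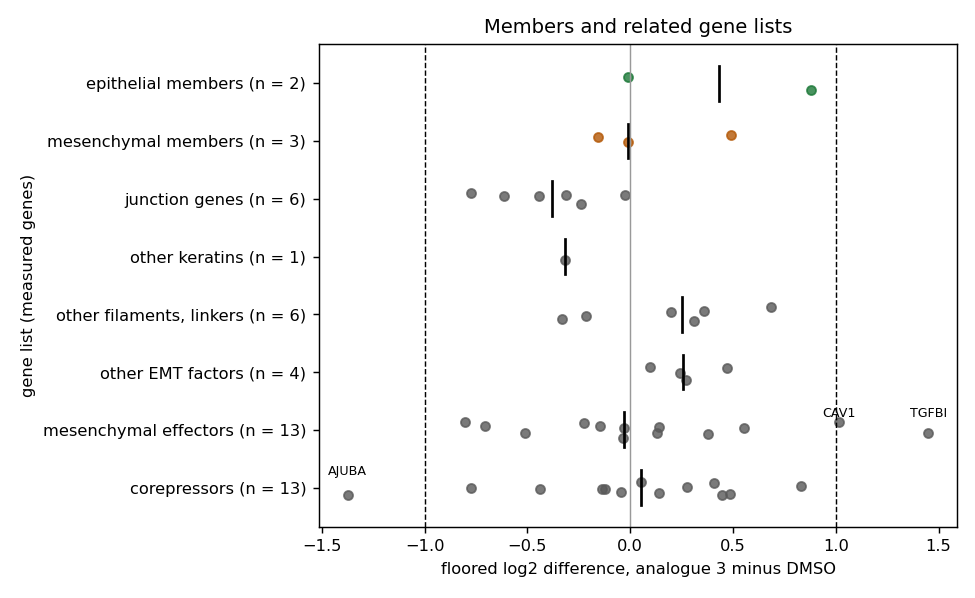
Floored log2 difference (analogue 3 minus DMSO) of each measured gene in the member groups and in 6 of the 7 related lists. The epithelial splicing, transcription and protease list had none measured. Each row has a bar at its median, and dashed lines stand at 2-fold. All 6 junction genes lie left of 0, the 4 other transition factors lie right of it, and TGFBI, CAV1 and AJUBA are the named points beyond 2-fold.

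Markers of other cell types were checked beside these values. No leukocyte, fibroblast, endothelial or differentiated lung epithelial marker reached the floor on either array. Summed intensities with analogue 3 and DMSO were 5.77 and 5.78 for 5 leukocyte markers, 7.92 and 6.31 for 5 fibroblast markers, 19.0 and 14.4 for 4 endothelial markers, and 13.2 and 10.6 for 5 lung epithelial markers. The fibroblast markers COL1A1, COL3A1 and PDGFRB also stand in the mesenchymal matrix list. Of the fibroblast markers COL1A1 came nearest to the floor, at 5.50 and 3.93, and the part of other cells in the VIM and SNAI2 values was not tested. For the GAPDH control probe sets, 3′ signal over 5′ signal was 1.18 on the treated array and 1.21 on the control array. For ACTB these ratios were 10.0 and 11.8, and the part of RNA quality in the member values was not tested.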

How the data were processed

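The authors deposited linear intensity values for 54675 probe sets on each of 2 arrays. GCRMA (background correction, quantile normalization and summarisation) is the tool given by the submitters' processing notes; its version and any genome build are not given in the sources used here. Both columns have a median of 1, so division by the array median was inferred from the values. Intensities were taken to log2, a floor of log2 5 was applied to each array, and DMSO was subtracted from analogue 3. The floor, 32 times the array median, is strict: 13.1% and 13.4% of probe sets reached it. A gene was represented by its brightest single-gene probe set, and counted as different at 2-fold or more. Where only one array reached the floor, the fold is a bound. Members and lists were chosen with earlier results of these data known. All 10 members were named; of each related list, the 3 measured genes with the largest differences and the brightest were named, with others chosen after their values were seen. All 17 member probe sets matched RefSeq by gene number with the current symbol. The difference was tested on simulated data, with changes put only into genes well above the floor. Those changes were larger than that of any measured member, and the floor's effect on a changed gene was not tested. Python 3.11.15, pandas 2.3.3 and statsmodels 0.14.6 were used. The number of arrays limits the precision, and nothing in the labels says that the cultures were repeated.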

Additional observations from a re-analysis of the deposited data

How the results depend on the processing

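Of 12 alternatives tried, those that follow moved a median by more than the probe-set SD, or a count over all members or over all related lists by over 1.5 times; each changes which genes are measured, how a gene is represented or where the threshold lies. The epithelial median was 0.88 with a floor of log2 1 and -0.0091 with a floor of log2 7; it could not be computed without probe sets ending in _s_at or _x_at, since no measured epithelial member was left. The mesenchymal median was 0.24 with floors of log2 3 and log2 4, 0.39 over 2 genes when a gene was the median of its probe sets, and 0.17 over 2 genes without _s_at and _x_at probe sets. The count of members at least 2-fold higher was 1 with a floor of log2 1, with no floor and at a threshold of 1.5-fold. Over the 7 related lists, the count higher was 7 of 81 measured genes with a floor of log2 1. With no floor it was 7 of 128. It was 5 of 58 and 5 of 49 with floors of log2 3 and 4, and 4 of 43 at 1.5-fold. It was 1 of 18 with a floor of log2 7, 1 of 19 with the median of probe sets, and 0 of 43 at 3-fold. The count lower was 6 of 43 at 1.5-fold and 0 of 43 at 3-fold. It was 0 of 18 with a floor of log2 7 and 0 of 19 with the median of probe sets. At 1.5-fold, 9.45% of all measured genes were higher and 9.13% lower. These counts thus change with the number of genes measured. Of the related lists' medians, the matrix genes moved to 0.95 and the corepressors to 0.29 with the median of probe sets, and the filament genes to -0.10 with a floor of log2 7. The other keratins moved to 0.40 with a floor of log2 1, 0.22 with log2 3 and 0.0032 with none. The junction genes moved to -0.20 with a floor of log2 1 and -0.15 with none, and the transition factors to 0.08 with none. Centring, loess removal and quantile normalization moved none of these past those limits. Among the members measured at the main floor, VIM alone moved past the probe-set SD, to 0.29 with the median of its probe sets. CDH1 and EPCAM had a value only with no floor, so theirs could not move. KRT19, CDH2 and TWIST1 had values only with no floor or at lower floors that both arrays exceeded, so theirs could not move either. KRT18 and VIM, both just under 0 as reported, turned to 0.0050 and 0.0026 with centring. No paired analysis was possible because each group has 1 array. Signal near the array median limits what can be said of CDH1, EPCAM, KRT19 and CDH2.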
